A study of Mus musculus with 12 samples.

Results

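Expression of 10 genes of glycolysis and the hypoxia response was followed in 12 RNA sequencing libraries of mouse pancreatic islets, in which beta cells make insulin beside other endocrine cells. The genes were Bnip3, Pdk1, Pgk1, Eno1, Aldoa, Gapdh, Pkm, Egln3, Pfkfb3 and Slc2a1, taken by symbol from the 54532 Ensembl genes of the count tables. The 10 symbols matched 11 rows, because Aldoa has a second, overlapping Ensembl gene with 99 counts over all libraries against 74920 for the main one, which was used. All 10 genes were among the 16076 genes with enough counts to be tested.

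The mice were male C57BL/6 animals, either with a knockout of Sirt3 restricted to pancreatic beta cells (KO) or wild type (WT), and were fed a high fat diet (HFD, 60% of calories from fat) or a standard diet (STD, 6.2% fat). Sirt3 encodes a mitochondrial deacetylase that uses NAD. The 4 groups of 3 libraries are HFD KO, HFD WT, STD KO and STD WT. High fat feeding lasted 36 weeks in both genotypes. It followed 6, 5 and 6 weeks of standard food in HFD KO 1, 2 and 3, against 4 weeks in each HFD WT library, so genotype and the earlier feeding period differ together under this diet and cannot be told apart. The STD groups had standard food throughout. Each library is labelled 40 weeks old, although the feeding periods of HFD KO add up to more. The promoter that drives the deletion, the deleted exons, and whether 1 group's libraries are of different mice are not stated. The p-values therefore measure only the spread between these libraries.

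In glycolysis, glucose enters the cell through transporters such as that encoded by Slc2a1 and is broken down to pyruvate by cytosolic enzymes, among them those of Aldoa, Gapdh, Pgk1, Eno1 and Pkm. When oxygen is scarce, hypoxia-inducible factors (HIF) escape hydroxylation and destruction and bind DNA at the core letters ACGTG or GCGTG, which raises the transcription of glucose transporters, glycolytic enzymes, the pyruvate dehydrogenase kinase gene Pdk1 and the mitophagy gene Bnip3. Beta cells depend on glycolysis coupled to mitochondrial oxidation to sense glucose. They normally keep lactate production low, and activation of HIF in mouse beta cells is known to impair insulin secretion.

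Both forms of that core were looked up on both strands of the 250 bases upstream of each RefSeq gene start (GRCm38.p6, the assembly also named mm10). Of 32851 such windows over all genes, 38.6% held at least 1 of the motifs and 16.6% held ACGTG. All 10 genes had an entry, in 17 windows, of which 14 held a motif and 9 held ACGTG. Some windows of 1 gene overlap and share matches, as for Aldoa and Eno1, so the windows are not independent. By gene, 10 of 10 held a motif in at least 1 window and 7 held ACGTG, whereas the shares over all genes are per window. The windows of 4 genes are shown. Bnip3 differed in the comparison of KO with WT under the high fat diet, and Pgk1 was the glycolytic enzyme gene with the highest fold there. Pdk1 is a classical hypoxia target that, like Pgk1, was not called different there, and Gapdh was the steadiest of the 10. The windows run 5′ to 3′ on the strand of the gene and end at the base before the start. The capitals mark the motif letters, read as CACGT or CACGC where the motif lies on the opposite strand.
Bnip3, chr7:138909507-138909756, minus strand: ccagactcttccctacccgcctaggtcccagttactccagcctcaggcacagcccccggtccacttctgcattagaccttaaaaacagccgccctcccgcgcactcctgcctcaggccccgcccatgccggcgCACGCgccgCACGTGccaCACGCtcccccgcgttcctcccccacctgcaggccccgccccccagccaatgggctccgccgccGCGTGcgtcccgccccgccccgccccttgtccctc
Pgk1, chrX:106186850-106187099, plus strand: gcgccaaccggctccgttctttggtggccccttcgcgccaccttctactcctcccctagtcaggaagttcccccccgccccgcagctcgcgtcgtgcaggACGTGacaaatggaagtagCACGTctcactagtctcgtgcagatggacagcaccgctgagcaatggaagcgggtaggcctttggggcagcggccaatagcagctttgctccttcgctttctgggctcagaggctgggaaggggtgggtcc
Pdk1, chr2:71872974-71873223, plus strand: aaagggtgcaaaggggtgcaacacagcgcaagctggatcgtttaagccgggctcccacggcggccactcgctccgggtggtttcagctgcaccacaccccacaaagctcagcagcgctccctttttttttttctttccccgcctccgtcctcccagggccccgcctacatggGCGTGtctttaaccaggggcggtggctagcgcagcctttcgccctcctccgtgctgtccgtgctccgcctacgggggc
Gapdh, chr6:125165774-125166023, minus strand: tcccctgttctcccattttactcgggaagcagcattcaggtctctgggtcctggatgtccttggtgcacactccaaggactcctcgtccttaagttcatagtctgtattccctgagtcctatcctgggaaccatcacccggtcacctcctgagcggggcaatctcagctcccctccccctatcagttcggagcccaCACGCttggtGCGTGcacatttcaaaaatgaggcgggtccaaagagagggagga
Counting the first letter of a match from the start, the Bnip3 window held 5 matches, at −117, −108, −107, −99 and −35, and 2.58% of all windows held 4 or more. The matches at −108 and −107 lie on opposite strands and overlap. The last 13 bases of this window lie in an exon by the GENCODE annotation. The Pgk1 window held ACGTG at −150 and −131, the Pdk1 window GCGTG at −78, and the Gapdh window GCGTG at −54 and −44. The windows of Egln3 and Slc2a1 also held ACGTG, at −229 and −36, as did windows of Aldoa, Pfkfb3 and Pkm. These matches describe letters, and binding was not measured.

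Total counts lay between 16037709 and 20864920 per library. Sirt3, counted over the whole gene in all islet cells, had 7.84, 11.5 and 6.20 CPM (counts scaled to a common library size) in HFD KO 1, 2 and 3, against 11.4, 9.29 and 11.8 CPM in the HFD WT libraries. It had 6.59, 5.97 and 5.85 CPM in STD KO and 9.03, 11.3 and 11.5 CPM in STD WT. The library labelled HFD KO 2 thus lay inside the WT range, so calls under the high fat diet that are lost without it are marked. Summed beta cell markers (10 genes, with Ins1 and Ins2) made up 246827 to 366636 CPM in HFD KO and 188429 to 406214 CPM over all 12 libraries, which fits the islet label. Of the 9 lists of cell type markers, no marker was at 0 in any library. CPM are scaled by the trimmed mean of M-values (TMM) throughout, and the SD is over 3 libraries.

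Per base of transcript, the enzymes stood highest and the regulators lowest. Mean FPKM (fragments scaled by transcript length and library total) over the 12 libraries was 599 for Pkm, the last enzyme of the pathway, and 593 for Gapdh, and these neighbours in the order did not differ beyond their spread, with Pkm the higher in 7 of 12 libraries. Aldoa (333 FPKM) and Eno1 (232 FPKM) followed, then Pgk1 (95.2 FPKM) and Bnip3 (58.6 FPKM). Pdk1 stood at 16.9, Slc2a1 at 11.9, Pfkfb3 at 8.13 and Egln3 at 1.05 FPKM. Of the 9 steps in this order, the ranges over 12 libraries were apart at 4: between Gapdh and Aldoa, Eno1 and Pgk1, Bnip3 and Pdk1, and Pfkfb3 and Egln3. The 4 enzyme genes with the highest levels were also the steadiest, and Pgk1 varied more than Pdk1. The coefficient of variation of CPM over 12 libraries was 5.99% for Gapdh, 11.0% for Pkm, 11.3% for Eno1, 11.7% for Aldoa, 13.7% for Pdk1 and 17.1% for Pgk1, against 24.7% for Slc2a1, 30.7% for Pfkfb3, 43.3% for Bnip3 and 61.5% for Egln3. Counting error alone gives a coefficient of 14.03% for Egln3, which had 16 to 161 counts per library, and at most 5.65% for the other 9 genes.

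**Figure D1:**
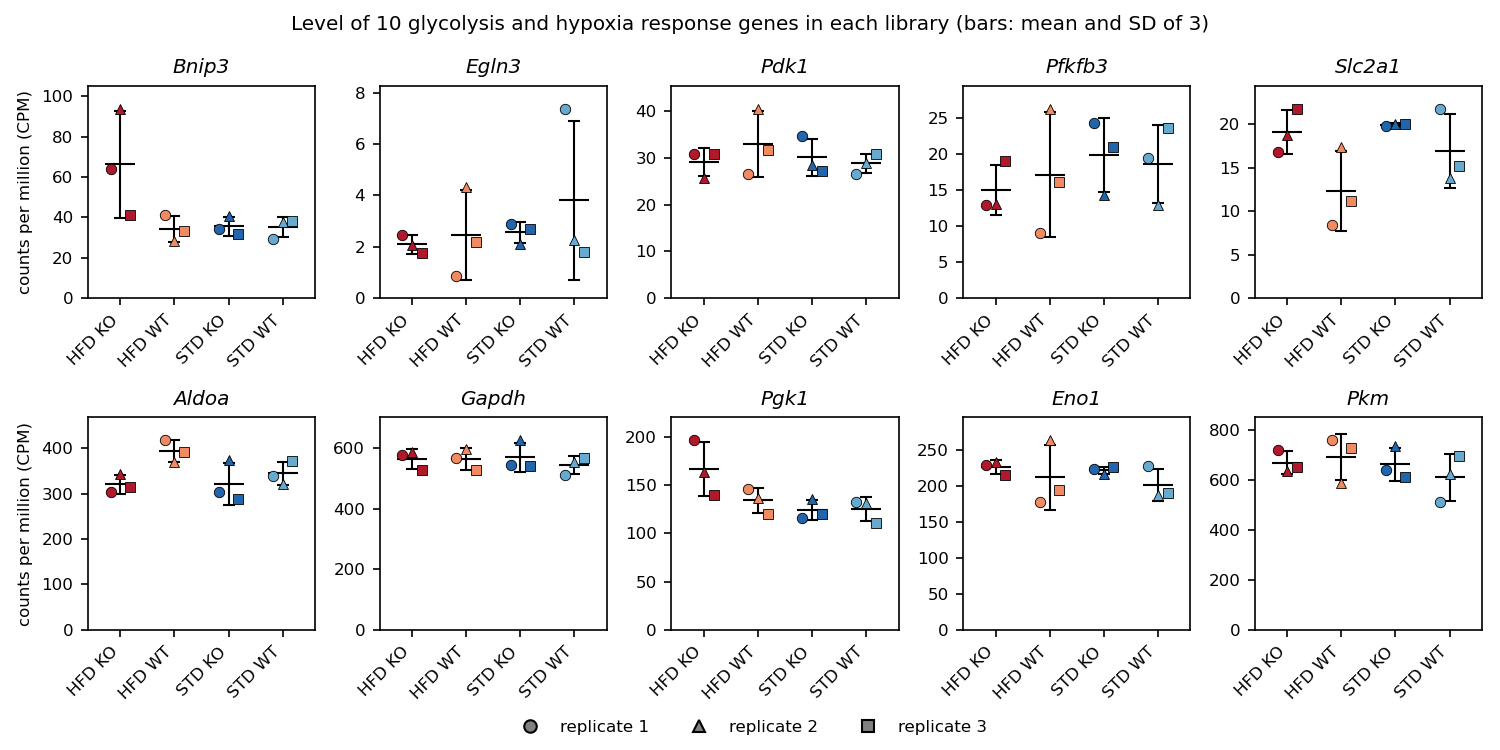
Level of each gene in CPM (linear axis from 0) in the 3 libraries of each group, with the mean and SD as black bars; marker shapes give the replicate number. Bnip3 stands at 64.0 and 93.9 CPM in HFD KO 1 and 2, above the other 10 libraries, while Gapdh stays between 511 and 626 CPM.

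Under the high fat diet, Bnip3 was the 1 gene of the 10 that rose in KO islets, and none fell. Bnip3 (ENSMUSG00000078566, mm10 chromosome 7, 138890836 to 138909519, minus strand) encodes a mitochondrial outer membrane protein that recruits autophagosomes to mitochondria and is switched on by HIF. It stood at 64.0, 93.9 and 41.2 CPM in the HFD KO libraries, against 41.2, 28.2 and 33.4 CPM in the HFD WT libraries. HFD KO 1 and 2 lay above every other library of the study, whereas HFD KO 3, at 41.19 CPM, met HFD WT 1, at 41.20 CPM, so the groups overlapped. The means were 66.4 ± 26.4 CPM in HFD KO and 34.3 ± 6.56 CPM in HFD WT (SD, n = 3 each), a fitted fold of 1.93. By the quasi-likelihood test of edgeR, with p adjusted over all genes tested by the Benjamini-Hochberg method, the log2 fold change was 0.95 (SE 0.26, 95% interval 0.38 to 1.52, adjusted p = 0.0493). In bulk islets, a change in the number of cells of a type and a change in RNA per cell cannot be told apart.

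This call lies at the threshold of 0.05. It held in 1 of the 12 fits that left out 1 library each, that without HFD KO 3 (log2 fold change 1.22, adjusted p = 0.00787); leaving out any 1 of the other 11 libraries, the adjusted p was 0.0576 to 0.191. Without HFD KO 2 the log2 fold change was 0.62 (adjusted p = 0.167). Same-numbered HFD libraries deviated together across genes, but some differently numbered libraries of other groups did so to a like degree, and whether the numbers are pairs is unknown. With the replicate number as a block, the log2 fold change was 0.85 (edgeR adjusted p = 0.147) in the 2 HFD groups alone. It was 0.89 (adjusted p = 0.0457) in a fit of all 12 libraries, an alternative added after the data were seen. Within the numbered pairs, Bnip3 was higher in the KO library in 3 of 3, with log2 ratios of 0.64, 1.74 and 0.30. Fold changes in this comparison also ran with gene length over all genes (Spearman's rho −0.31, across genes, which are not independent replicates), and the Bnip3 model is 720 bases long against a median of 1799 for all genes tested. With offsets corrected for length, the log2 fold change was 0.62 (adjusted p = 0.0527).

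**Figure D2:**
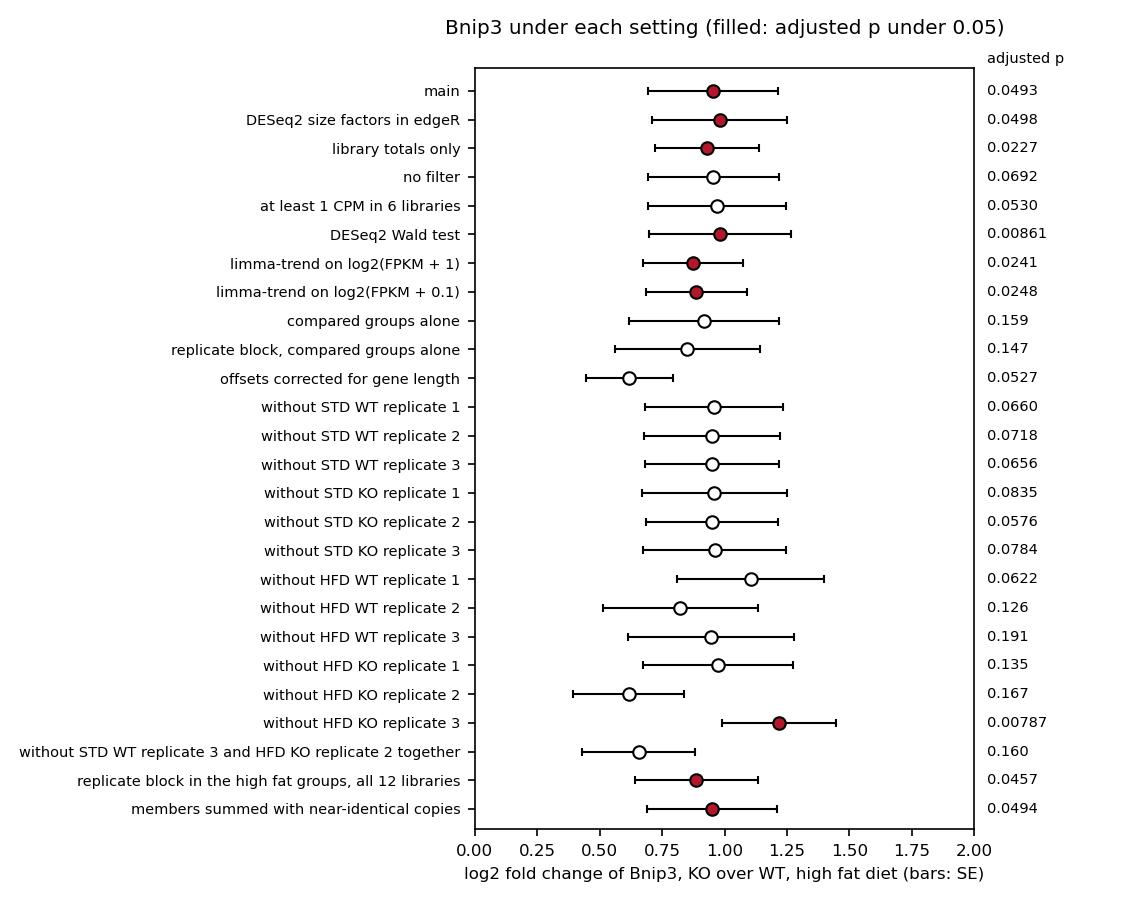
Log2 fold change of Bnip3 in HFD KO over HFD WT (points; bars are SE) as reported, at the top, and under each of 25 alternatives, with the adjusted p at the right; filled points are past 0.05. Every value lies above 0, between 0.62 and 1.22, and 8 of the 25 alternatives passed.

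The count of 1 gene in 10 stands close to the background: 1189 of 16076 genes, 7.4%, passed in HFD KO against HFD WT, 3.9% higher and 3.5% lower. At an unadjusted p under 0.05 there were 2 of the 10, Bnip3 and Slc2a1, beside 24.3% of all genes. With the block in all 12 libraries 1969 genes passed. The median log2 fold change of the 10 genes was −0.02, beside −0.00 for all genes tested.

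Slc2a1 (ENSMUSG00000028645, chromosome 4, 119108711 to 119137983, plus strand) encodes GLUT1, a high-affinity glucose transporter that HIF induces; Slc2a2 is the main glucose transporter gene of mouse beta cells. It stood at 16.8, 18.8 and 21.8 CPM in HFD KO, against 8.46, 17.4 and 11.2 CPM in HFD WT. HFD WT 1 and 3 were the lowest of the 12 libraries for this gene, and HFD WT 2 lay inside the HFD KO range. The log2 fold change was 0.63 (SE 0.25, 95% interval 0.09 to 1.18), with an unadjusted p of 0.026, and did not pass (edgeR, adjusted p = 0.145). It passed without HFD WT 2 (log2 fold change 0.95, adjusted p = 0.0244), and it was 0.65 without HFD KO 2 (adjusted p = 0.259).

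Among the enzymes that carry glucose to pyruvate, no gene passed. Pgk1 (ENSMUSG00000062070, chromosome X, 106187100 to 106203699, plus strand), phosphoglycerate kinase, makes the first ATP that glycolysis gains and is a standard HIF target. It stood at 196.8, 163.4 and 140.2 CPM in HFD KO, against 146.0, 137.0 and 120.2 CPM in HFD WT. The KO library was the higher in each numbered pair, but HFD KO 3 lay below HFD WT 1. The log2 fold change was 0.31 (SE 0.15, 95% interval −0.01 to 0.63, edgeR adjusted p = 0.222), and 0.32 without HFD KO 2.

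Aldoa (ENSMUSG00000030695, chromosome 7, 126795234 to 126800751, minus strand), the aldolase that splits the hexose, stood on the other side. It had 304.5, 344.6 and 314.7 CPM in HFD KO, against 418.1, 369.6 and 392.8 CPM in HFD WT. All 3 HFD KO libraries lay below the lowest HFD WT library, and this was the 1 of the 10 genes whose groups did not overlap, beside 24.5% of all genes tested (13.3% with HFD KO the lower). The log2 fold change was −0.29 (SE 0.14, 95% interval −0.60 to 0.01, edgeR adjusted p = 0.221). It passed in 1 of its 25 alternatives, with offsets corrected for gene length (−0.44, adjusted p = 0.0441).

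Gapdh, Eno1 and Pkm lay near equality. Gapdh (ENSMUSG00000057666, chromosome 6, 125161715 to 125166467, minus strand), whose product makes NADH and which is widely used as a reference transcript, averaged 564 ± 32.8 CPM in HFD KO and 564 ± 36.0 CPM in HFD WT (SD, n = 3 each). Its log2 fold change had a 95% interval of −0.29 to 0.29. Eno1 (ENSMUSG00000063524, chromosome 4, 150236721 to 150248879, plus strand), an enolase, averaged 226 ± 9.86 CPM in HFD KO and 212 ± 45.4 CPM in HFD WT. Pkm (ENSMUSG00000032294, chromosome 9, 59656368 to 59679375, plus strand), pyruvate kinase, averaged 670 ± 45.1 CPM in HFD KO and 693 ± 91.3 CPM in HFD WT, and the intervals of Eno1 (−0.25 to 0.43) and Pkm (−0.41 to 0.31) also include 0. Gapdh has 179 near-identical copies among the listed genes, nearly all pseudogenes by type, of which 68 had counts that summed to 2.24% of its own. Eno1 had 7 copies with 0.449%, and the copies of Bnip3, Pgk1 and Pkm had at most 0.122%. How reads that match several copies were counted is not given in the sources used here.

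The regulators of the pathway did not pass either. Pdk1 (ENSMUSG00000006494, chromosome 2, 71873224 to 71903858, plus strand), a kinase that shuts off pyruvate dehydrogenase and so keeps pyruvate out of the mitochondrion, averaged 29.2 ± 2.94 CPM in HFD KO and 33.0 ± 7.02 CPM in HFD WT (SD, n = 3 each). Pfkfb3 (ENSMUSG00000026773, chromosome 2, 11471433 to 11554077, minus strand) makes the activator of phosphofructokinase. It had 13.0, 13.1 and 19.0 CPM in HFD KO, against 9.05, 26.3 and 16.1 CPM in HFD WT, and the HFD WT libraries alone spanned the whole range of the study. Egln3 (ENSMUSG00000035105, chromosome 12, 54178981 to 54203860, minus strand), a HIF prolyl hydroxylase that HIF itself induces, had 2.47, 2.07 and 1.74 CPM in HFD KO, against 0.86, 4.35 and 2.17 CPM in HFD WT. The log2 fold changes of these 3 genes lay between −0.23 and −0.18 (edgeR, adjusted p from 0.549 to 0.857), and the interval for Egln3, −1.54 to 1.08, leaves changes of more than 2-fold either way within reach.

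Some markers of other cells also differed in this comparison. Of 11 macrophage markers, 3 were called higher in HFD KO, namely Mrc1, C1qb and C1qc, beside 3.9% of all genes tested. The calls of Mrc1 and C1qb held in all 25 alternatives. That of C1qc held in 8 of the 12 fits without 1 library (edgeR adjusted p up to 0.114, without HFD KO 1). With offsets corrected for gene length it was lost (0.0565). The summed level of the list was 380 to 517 CPM in HFD KO, against 174 to 440 CPM in HFD WT. The summed stellate cell and fibroblast markers lay at 229 to 600 CPM in HFD KO, against 185 to 285 CPM in HFD WT, with overlapping ranges and a list median of 1.08 on the log2 scale. None of the 9 passed with edgeR (0 of 9, with 2 at an unadjusted p under 0.05) or with DESeq2 (0). Acinar markers summed to 16651 to 22684 CPM in HFD KO, against 20760 to 33642 CPM in HFD WT, again overlapping, with a list median of −0.40. None of the 12 passed with edgeR (0 of 12, with 0 at an unadjusted p under 0.05) or with DESeq2 (0). Of 10 beta cell markers, Ucn3 and Slc30a8 were lower in HFD KO (log2 fold changes −1.13 and −0.87, edgeR adjusted p = 0.0046 and 0.0157), and the call of Slc30a8 was lost with HFD KO 2 left out (adjusted p = 0.0524). The list did not move 1 way: 7 fold changes lay below 0 and 3 above, with a median of −0.41 on the log2 scale. Ins1, for 1, averaged 111047 CPM in HFD KO, against 74286 CPM in HFD WT. No marker of this list was called higher. Within HFD KO, Bnip3 was highest in library 2 and lowest in library 3, and 5 of the 9 summed marker lists had the same order. In libraries 1, 2 and 3 these sums were 363317, 366636 and 246827 CPM for beta cells, 31849, 35717 and 13380 CPM for alpha cells, and 3800, 8409 and 3046 CPM for delta and PP cells. They were 385, 517 and 380 CPM for macrophages and 186, 299 and 85.1 CPM for erythrocytes. The stellate cell sums had the opposite order, with 342, 229 and 600 CPM. CPM were divided by TMM factors of 0.918, 0.904 and 1.07 in HFD KO 1, 2 and 3. This raises libraries 1 and 2 against library 3 for every gene. Beta cell sums were nearly level in libraries 1 and 2, and macrophage sums in 1 and 3. For both lists the order depends on this scaling. The part of these cells in the Bnip3 difference was not tested.

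**Figure D3:**
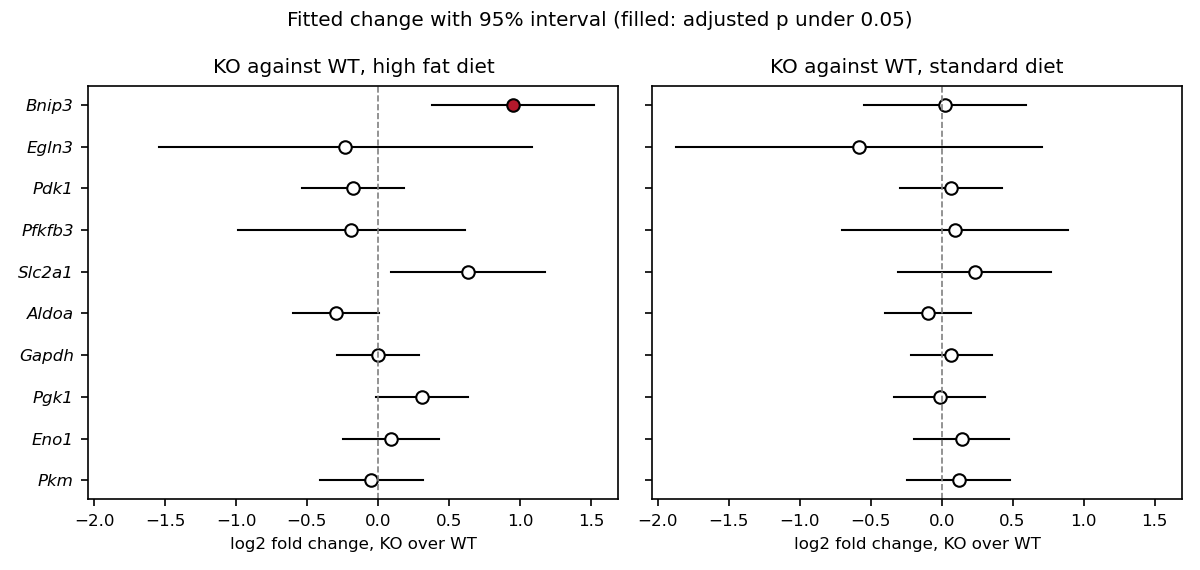
Log2 fold change of each gene, KO over WT, with its 95% interval from the edgeR fit, under the high fat diet (left) and the standard diet (right); filled points have an adjusted p under 0.05. Bnip3 under the high fat diet is the 1 filled point, at 0.95.

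Under the standard diet, none of the 10 genes differed between KO and WT islets past the threshold: edgeR called 0 of 10 (all adjusted p = 0.999, with 0 of 10 at an unadjusted p under 0.05), and DESeq2 also called 0. The background was 275 of 16076 genes, 1.71%, and 8.66% at an unadjusted p under 0.05. The groups overlapped for all 10, whereas 14.8% of all genes had groups that did not. Bnip3 stood at 34.4, 40.9 and 31.8 CPM in STD KO, against 29.3, 37.9 and 38.2 CPM in STD WT. Its groups overlapped almost fully (log2 fold change 0.02, 95% interval −0.54 to 0.59). Slc2a1 stood at 19.8, 20.0 and 20.1 CPM in STD KO, against 21.8, 13.8 and 15.2 CPM in STD WT, so the STD KO libraries lay close together (SD 0.17 CPM) inside the STD WT range.

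The glycolytic enzymes had log2 fold changes between −0.10 (Aldoa) and 0.14 (Eno1) under the standard diet, each with groups that overlapped. Egln3 had the value farthest from 0, −0.58 (SE 0.59), with 2.88, 2.10 and 2.68 CPM in STD KO, against 7.38, 2.28 and 1.78 CPM in STD WT. It rested on STD WT 1, without which it was 0.32. The median of the 10 genes was 0.07, beside −0.02 for all genes, and scaling by library totals alone moved the median of all genes to 0.12. Summed macrophage markers were 310 to 418 CPM in STD KO, against 283 to 297 CPM in STD WT, with a list median of 0.39.

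The difference between the genotype effects under both diets was tested as an interaction. Bnip3 had an interaction of 0.93 on the log2 scale (SE 0.37, 95% interval 0.12 to 1.73), with an unadjusted p of 0.027, and did not pass (edgeR, adjusted p = 0.621). No gene passed here with edgeR (0 of 16076, 0.0%, with 1271, or 7.91%, at an unadjusted p under 0.05), and DESeq2 called 31, none of the 10 among them. An effect of KO on Bnip3 that depends on the diet was therefore not shown. The interactions of the other 9 genes lay between −0.28 and 0.40.

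Within KO islets, Bnip3 and Pgk1 were the 2 genes of the 10 whose HFD and STD groups did not overlap, beside 12.1% of all genes tested (5.91% with HFD KO the higher). The 64.0, 93.9 and 41.2 CPM of Bnip3 in HFD KO lay above the 34.4, 40.9 and 31.8 CPM in STD KO, with HFD KO 3 and STD KO 2 almost level. The log2 fold change was 0.89 (SE 0.26, unadjusted p = 0.00533) and did not pass (edgeR, adjusted p = 0.34). Pgk1 had 196.8, 163.4 and 140.2 CPM in HFD KO, against 116.3, 135.8 and 119.8 CPM in STD KO, with a log2 fold change of 0.43 (SE 0.15, unadjusted p = 0.014, edgeR adjusted p = 0.34). In this comparison 7 genes, 0.0435%, passed, and 12.5% had an unadjusted p under 0.05. Fold changes again ran with gene length (rho −0.34 across genes). Without HFD KO 3, 802 genes passed, and Bnip3 (1.17, adjusted p = 0.0335) and Pgk1 (0.56, adjusted p = 0.0493) were among them; without HFD KO 2 the log2 fold change of Bnip3 was 0.56 (adjusted p = 0.698). This comparison and that of HFD KO with HFD WT share the HFD KO libraries, so their values for Bnip3, 0.89 and 0.95, are not separate measurements.

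Within WT islets, the diet groups overlapped for each of the 10 genes, while 9.59% of all genes had groups that did not. EdgeR called 0 of the 10 and 0 of all genes (0.0%, with 762, or 4.74%, at an unadjusted p under 0.05, none of them among the 10), and DESeq2 called 43 genes, again none of the 10. Bnip3 averaged 34.3 ± 6.56 CPM in HFD WT and 35.1 ± 5.06 CPM in STD WT (SD, n = 3 each), a log2 fold change of −0.03 with a 95% interval of −0.60 to 0.53. Values of the other 9 lay between −0.64 for Egln3 and 0.20 for Pdk1, and that of Egln3 ran from −1.31 to 0.26 with 1 library left out. The 3 groups other than HFD KO thus had mean Bnip3 levels between 34.3 and 35.7 CPM.

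**Figure D4:**
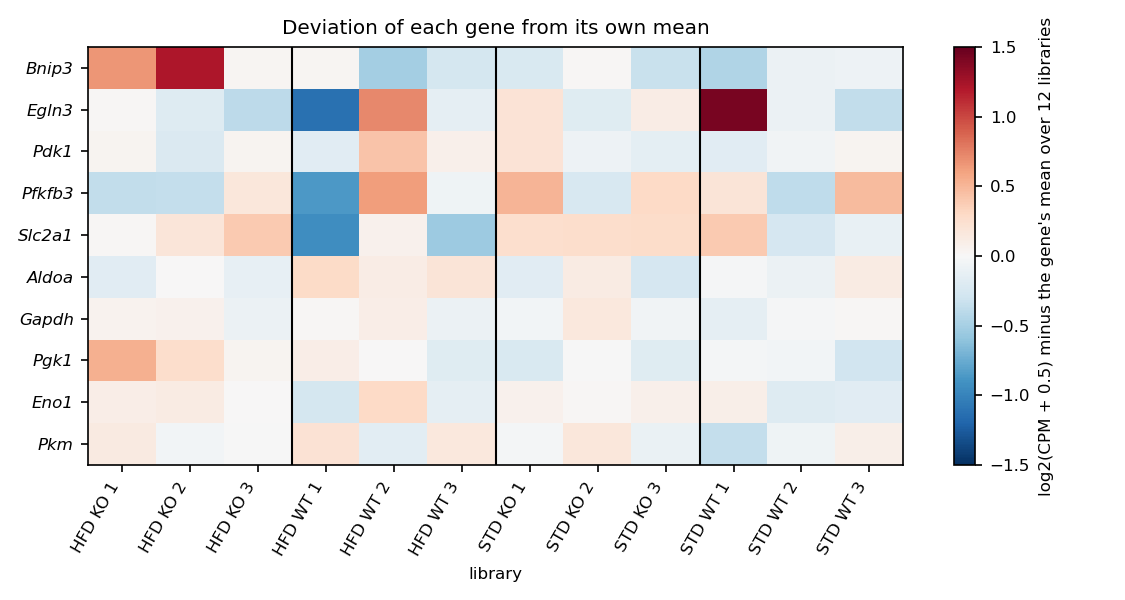
Deviation of each gene from its own mean of log2(CPM + 0.5) over the 12 libraries (colour scale from −1.5 to 1.5), with the groups separated by lines. Bnip3 stands at 0.66 and 1.21 in HFD KO 1 and 2, and HFD WT 1 is low for Egln3 (−1.12), Pfkfb3 (−0.86) and Slc2a1 (−0.93).

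Across single libraries the genes did not move as a block. HFD WT 1 had the lowest level of Egln3, Pfkfb3, Slc2a1 and Eno1 of the 12 libraries and, at the same time, the highest level of Aldoa and Pkm. HFD WT 2, from the same group, had the highest level of Pfkfb3, Pdk1 and Eno1 and the lowest of Bnip3. STD WT 1 had the highest Egln3, 7.38 CPM, which made up 161 of its 610 counts over all libraries, together with the lowest Pkm and Gapdh. Summed over the 10 genes, the level was 0.184% to 0.224% of all unscaled counts in a library. By this share STD KO 1, 2 and 3, at 0.215%, 0.224% and 0.216%, lay above every other library. In TMM-scaled CPM the sums ran from 1828 to 2198. With 1946, 2198 and 1888 CPM, STD KO did not stand apart there.

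The genes outside the set whose profile over the 12 libraries was most like that of Bnip3, among 10868 genes with a mean of at least 5 CPM, were Fam183b, Chchd7 and Prorsd1. The measure was the root mean square difference of centred log2 CPM, 0.13, 0.13 and 0.14 for these 3 genes, while the Bnip3 profile itself had a root mean square of 0.47. Chchd7 had 38.5, 65.7 and 27.3 CPM in HFD KO, against 32.1, 19.9 and 22.9 CPM in HFD WT, the same order of HFD KO libraries as Bnip3. The models of Fam183b and Chchd7 are short, with 530 and 708 bases, while that of Prorsd1 has 1522, beside a median of 1799 for all genes tested. For the mean profile of Aldoa, Gapdh, Pgk1, Eno1 and Pkm, the nearest genes were Tpi1 (0.04), Ric8a (0.06) and Ndufa10 (0.06), beside 0.08 for that profile itself. Tpi1 encodes triosephosphate isomerase, the glycolytic enzyme between aldolase and Gapdh, and ranged from 121 to 147 CPM.

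Of the wider pathway, 5 lists with 103 tested genes were read in the same fits. Under the high fat diet 10 of the 103 differed between KO and WT, close to the 7.4% of all genes, and under the standard diet 4 did, beside 1.71%. The HFD calls of Arnt2, Adpgk, Ddit4, Slc2a13 and Slc2a6 held with HFD KO 2 left out, and those of Egln1, Crebbp, Pfkfb4, Pdk2 and Loxl2 did not. Of 16 tested oxygen sensing genes and HIF subunits, 3 fell in HFD KO and none rose. Arnt2, which encodes a partner subunit that pairs with HIF alpha subunits and is best known from neurons, had 8.64, 8.14 and 8.92 CPM in HFD KO, against 24.9, 18.2 and 26.7 CPM in HFD WT. These groups lay far apart (log2 fold change −1.44, SE 0.16, edgeR adjusted p = 0.000456), and Arnt2 passed in all 25 alternatives. In STD KO it had 11.99, 11.5 and 13.3 CPM, against 17.6, 20.9 and 22.8 CPM in STD WT (−0.74, adjusted p = 0.0458), the 1 member of the list called there, in 6 of 24 alternatives and in 1 of the 12 fits that left a library out, that without HFD WT 2 (adjusted p up to 0.209, with STD KO 1 left out). The interaction of Arnt2 was −0.70 (adjusted p = 0.621).

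Egln1, the main HIF prolyl hydroxylase, fell in HFD KO to 33.1 ± 6.07 CPM, against 47.8 ± 4.82 CPM in HFD WT (SD, n = 3 each; log2 fold change −0.53, edgeR adjusted p = 0.0416). Crebbp, a coactivator that HIF recruits, fell to 28.8 ± 3.68 CPM in HFD KO, against 42.7 ± 2.12 CPM in HFD WT (−0.57, adjusted p = 0.0444). Both calls were fragile. Without HFD KO 2 the log2 fold change was −0.44 for Egln1 (adjusted p = 0.13) and −0.47 for Crebbp (adjusted p = 0.138). With offsets corrected for gene length it was −0.31 for Egln1 (adjusted p = 0.1) and −0.36 for Crebbp (adjusted p = 0.0514). With 1 library left out, Egln1 passed in 2 of 12 fits, those without HFD WT 2 or HFD KO 3. Crebbp passed in 6, and its call was lost without STD WT 2 or 3, HFD WT 1 or 3, or HFD KO 1 or 2. The highest adjusted p was 0.17 for Egln1, with HFD KO 1 left out, and 0.141 for Crebbp, with HFD WT 3 left out. Egln1 had an adjusted p of 0.0599 with the replicate block. The list's median was −0.14 under the high fat and −0.04 under the standard diet.

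Among 23 tested other glycolytic enzymes, 2 rose in KO islets under each diet and none fell, with medians of −0.01 (HFD) and −0.02 (STD). Both were regulatory or alternative enzymes. Adpgk, a glucokinase that uses ADP in place of ATP, had 24.7, 24.6 and 26.4 CPM in HFD KO, against 15.4, 13.5 and 15.1 CPM in HFD WT. It had 19.8, 20.6 and 23.3 CPM in STD KO, against 14.2, 11.5 and 12.9 CPM in STD WT. The KO libraries lay above all WT libraries under both diets (log2 fold change 0.78, adjusted p = 0.00319, and 0.73, adjusted p = 0.0112). The high fat call held in all 25 alternatives, whereas that under the standard diet was lost without STD WT 2 (adjusted p = 0.0718) and without STD KO 3 (0.0693).

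Pfkfb4, a relative of Pfkfb3 that HIF also induces, had 10.4, 8.76 and 10.0 CPM in HFD KO, against 6.05, 6.61 and 5.71 CPM in HFD WT. It had 8.65, 10.5 and 11.4 CPM in STD KO, against 5.36, 4.05 and 4.78 CPM in STD WT. The groups did not overlap under either diet (log2 fold change 0.67, adjusted p = 0.0432, and 1.10, adjusted p = 0.00804). The high fat call did not hold with the replicate block (adjusted p = 0.121) and passed in 3 of the 12 fits that left a library out (highest adjusted p 0.17, with HFD WT 3 left out), those without STD WT 1, STD KO 1 or HFD KO 3. Without HFD KO 2 the log2 fold change was 0.74 (adjusted p = 0.0609). The standard diet call was lost without STD WT 2 (0.0529).

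Of 36 other hypoxia-induced genes, 1 rose and 1 fell in HFD KO, and edgeR called 0 under the standard diet (2 at an unadjusted p under 0.05, and 1 with DESeq2). The smallest p there belonged to P4ha2, a collagen prolyl hydroxylase subunit, with a log2 fold change of −0.54 (adjusted p = 0.121). Ddit4, an inhibitor of mTORC1 signalling that responds to hypoxia and to other stresses, stood at 149.9, 124.6 and 175.6 CPM in HFD KO, against 85.3, 52.9 and 53.7 CPM in HFD WT (log2 fold change 1.23, SE 0.26, adjusted p = 0.0151). All HFD KO libraries were above all HFD WT libraries, and the call was lost without HFD WT 3 (adjusted p = 0.0957) and without HFD KO 1 (0.0589). Loxl2, a collagen cross-linking oxidase, fell to 7.28 ± 1.94 CPM in HFD KO, against 16.4 ± 5.42 CPM in HFD WT (SD, n = 3 each; −1.17, adjusted p = 0.0262). That call was lost without HFD WT 1 or 3 or HFD KO 1 or 2 (adjusted p up to 0.123, and 0.0978 without HFD KO 2). The medians of the list were −0.03 under the high fat and −0.14 under the standard diet, beside −0.00 and −0.02 for all genes.

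Lactate and pyruvate handling held 18 tested genes. Pdk2, a pyruvate dehydrogenase kinase like Pdk1, was the 1 that fell in HFD KO, with 19.3, 17.9 and 24.9 CPM, against 29.5, 31.2 and 31.4 CPM in HFD WT (log2 fold change −0.57, SE 0.14, adjusted p = 0.0292). With the replicate block its adjusted p was 0.0625, and it passed in 8 of the 12 fits that left a library out (highest adjusted p 0.131, with HFD KO 1 left out). The call was lost without HFD WT 1 or 3 or HFD KO 1 or 2, and without HFD KO 2 the log2 fold change was −0.47 (adjusted p = 0.0982). Under the standard diet edgeR called 0 of 18 (2 at an unadjusted p under 0.05, and 1 with DESeq2). The smallest p belonged to Pdp1, a phosphatase that opposes these kinases, with a log2 fold change of −0.56 (adjusted p = 0.113).

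Of 10 other sugar transporters, 2 rose in HFD KO and 1 in STD KO. Slc2a13, which carries myo-inositol with protons and no glucose, had 55.3, 33.7 and 64.7 CPM in HFD KO, against 22.9, 14.7 and 27.5 CPM in HFD WT. It had 47.6, 34.0 and 52.9 CPM in STD KO, against 12.6, 15.95 and 18.6 CPM in STD WT. No KO library met a WT library (log2 fold change 1.24, adjusted p = 0.0243, and 1.52, adjusted p = 0.022). Its calls were lost without HFD WT 1 or HFD KO 1 under the high fat diet (adjusted p up to 0.0973), and under the standard diet without STD WT 1 or 2 or STD KO 1 or 3 (up to 0.105). Slc2a6, a family member found on lysosomal membranes, had 8.03, 6.21 and 10.6 CPM in HFD KO, against 3.21, 4.35 and 3.26 CPM in HFD WT (log2 fold change 1.20, adjusted p = 0.0113). With the replicate block its adjusted p was 0.0717. With HFD WT 3 left out it was 0.0607, and the call was also lost with HFD WT 1 left out.

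**Figure D5:**
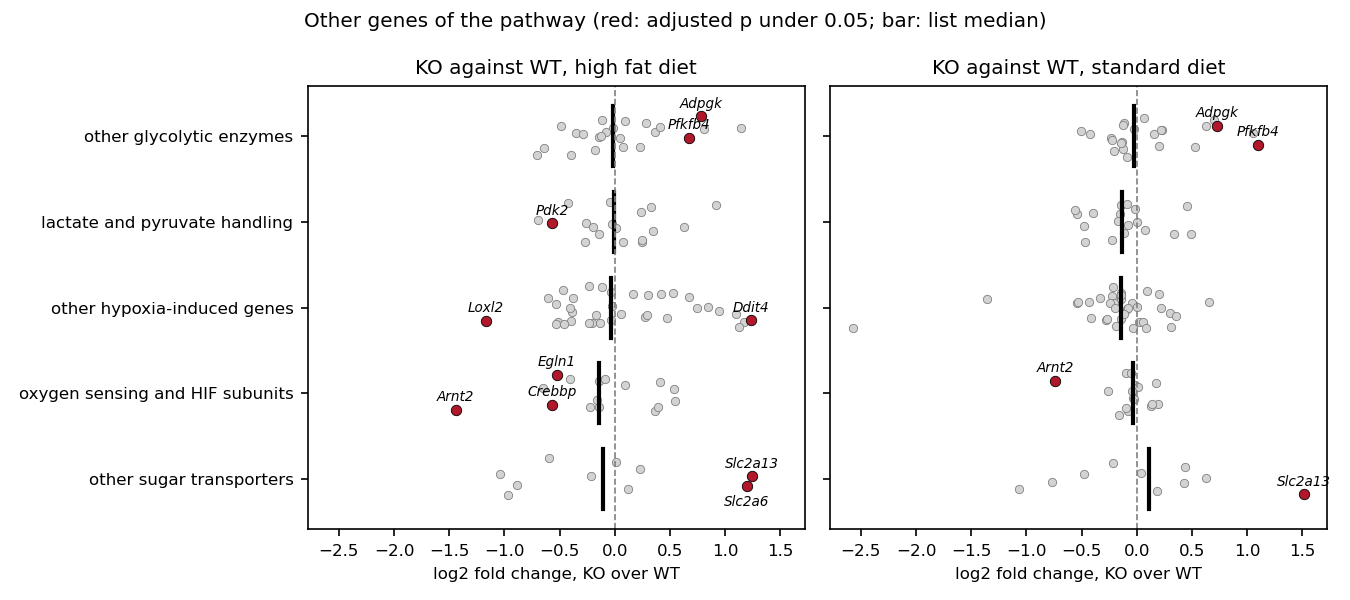
Log2 fold change, KO over WT, of each tested gene of the 5 lists under the high fat diet (left) and the standard diet (right); red points are past an adjusted p of 0.05 and carry their symbols, and black bars are list medians. The medians lie between −0.14 and 0.11, and Arnt2 under the high fat diet is the red point farthest below 0.

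Diet changed none of the 103 list genes past the threshold in either genotype. In HFD KO against STD KO, edgeR called 0 (21 at an unadjusted p under 0.05) and DESeq2 called 0. P4ha2 had the smallest p there (log2 fold change 0.48, edgeR adjusted p = 0.34). In HFD WT against STD WT, edgeR called 0 (9 at an unadjusted p under 0.05), as did DESeq2. The smallest p of these lists within WT islets belonged to Pdk4, the starvation-induced pyruvate dehydrogenase kinase, at 18.9 ± 1.13 CPM in HFD WT and 37.9 ± 15.6 CPM in STD WT (SD, n = 3 each; log2 fold change −1.01, edgeR adjusted p = 0.765).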

How the data were processed

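RNA of islets isolated with collagenase and a density gradient was sequenced, per the labels' protocols. The authors deposited 1 table of read counts and 1 of FPKM values for each of the 12 libraries. Per the submitters' processing notes, TopHat2, Cufflinks and DESeq were used with mm10. Not given in the sources used here are their versions, which tool made which file, the annotation, the counter and the strandedness. Gene length, count and library total gave back each of the 257939 deposited FPKM values above 0 (relative tolerance 1e-05).

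Symbols were matched by Ensembl ID (54409 of 54532), coordinates came from GENCODE M21, and promoter windows from RefSeq. Counts were tested with edgeR 4.0.16 in R 4.3.3: filterByExpr (minimum count 10, minimum total 15), TMM scaling, a robust quasi-likelihood fit of 4 group means in all 12 libraries, 5 two-sided contrasts and Benjamini-Hochberg adjustment over 16076 genes at a threshold of 0.05. The common biological coefficient of variation was 0.307. Spread between libraries of a group, with a chi-square per degree of freedom of 26.6 to 101, exceeded counting error. The fit was tested on simulated data.

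The 10 genes, the 5 pathway lists and the 9 marker lists were chosen with earlier results of these data known. Named were all 10 genes and, per list and comparison, up to 3 called genes with the smallest p, or else the 1 with the smallest p. Near-identical copies were transcripts with at least 90% identity over 80% of their length. Same-numbered HFD KO and HFD WT libraries deviated together from their group means (r of 0.515, 0.410 and 0.336 over all genes). Between differently numbered libraries of these 2 groups, r was −0.382 to −0.0276. In the other comparisons at least 1 same-numbered pair fell below 0.1. Differently numbered libraries reached like values there, such as 0.518 for HFD WT 2 with STD WT 1 and 0.372 for STD KO 2 with STD WT 3. Values of this size therefore do not show that the numbers are pairs, and the labels do not say what the numbers stand for. Alternatives used DESeq2 1.42.0 and limma 3.58.1 (log2 of FPKM plus 1 or plus 0.1, for genes averaging at least 0.5 FPKM).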

Additional observations from a re-analysis of the deposited data

How the results depend on the processing

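Bnip3 in HFD KO against HFD WT kept its direction in all 25 alternatives (log2 fold change 0.62 to 1.22) and passed in 8. The count of called genes among the 10 in that comparison, 1, was 0 with no filter, with at least 1 CPM in 6 libraries, in the compared groups alone, in those groups with the replicate block, and without STD WT 3 and HFD KO 2 together, and 0 to 1 in the fits without 1 library. Bnip3 had adjusted p-values there of 0.0692, 0.053, 0.159, 0.147 and 0.16. Fits without 1 library also test with fewer degrees of freedom.

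The number of genes called in HFD KO against HFD WT, 1189, was 2033 with DESeq2, 543 in the compared groups alone, 745 without STD WT 3 and HFD KO 2, 1969 with the replicate block in the HFD groups of all 12 libraries, and 519 to 2900 without 1 library (lowest without HFD KO 1, highest without HFD KO 3). In STD KO against STD WT, 275 genes became 484 with DESeq2, 135 with the replicate block, and 146 to 296 without 1 library. In HFD KO against STD KO, 7 became 3 by library totals, 140 with DESeq2, 2 and 0 with limma (pseudocounts 1 and 0.1), 0 in the compared groups alone, 3 with the replicate block, 2 without STD WT 3 and HFD KO 2, and 0 to 802 without 1 library; the count among the 10 genes was then 0 to 2. In HFD WT against STD WT, 0 became 1 by library totals and 43 with DESeq2. For the interaction, 0 became 1 with no filter and 31 with DESeq2. The cause of these shifts was not tested.

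Signs of values near 0 turned. In STD KO against STD WT, Pgk1 (−0.01) was 0.11 by library totals, 0.12 and 0.12 with limma, 0.0081 in the compared groups alone and 0.0099 with the replicate block. Aldoa (−0.10) was 0.029 by library totals and 0.029 and 0.029 with limma. In the same comparison, the fits without 1 library ranged from −0.10 to 0.10 for Bnip3, −0.050 to 0.14 for Pdk1, −0.094 to 0.030 for Pgk1, −0.0070 to 0.11 for Gapdh, −0.0046 to 0.22 for Pkm, −0.92 to 0.32 for Egln3 and −0.11 to 0.30 for Pfkfb3. In HFD KO against HFD WT, Gapdh (−0.00) was 0.022 with DESeq2 size factors, 0.0016 with no filter, 0.0090 with the stricter filter, 0.022 with the DESeq2 test and 0.0057 without STD WT 3 and HFD KO 2. Pkm (−0.05) was 0.024 without those libraries, and Eno1 (0.09) was −0.081 with offsets corrected for length. Without 1 library they ranged from −0.040 to 0.060 for Gapdh, −0.021 to 0.27 for Eno1, −0.17 to 0.022 for Pkm, −0.64 to 0.45 for Egln3 and −0.49 to 0.24 for Pfkfb3. In HFD WT against STD WT, Bnip3 (−0.03) was 0.012 without STD WT 3 and HFD KO 2, and −0.19 to 0.11 without 1 library, and Egln3 (−0.64) was −1.31 to 0.26. None of these values passed the threshold.

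Scaling by library totals alone moved the median log2 fold change of all genes to 0.12 in STD KO against STD WT, −0.20 in HFD KO against STD KO and −0.12 in the interaction. In the comparisons other than HFD KO against HFD WT, at least 1 same-numbered pair had an r below 0.1. The block changed no call among the 10 genes in them. Under the standard diet it ended the calls of Pfkfb4, Adpgk and Arnt2 (adjusted p = 0.156, 0.179 and 0.192). The block in the HFD groups of all 12 libraries and the sums with near-identical copies were added after the data were seen, and the sums changed no call among the 10 genes. With 16 to 161 counts per library, counting error limits Egln3.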
